A study of Mus musculus with 3 samples.

Results

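The genes examined encode enzymes and carriers that handle heme, iron and oxidants: Hmox1, Fth1, Nqo1, Gclc, Gclm, Txnrd1 and Srxn1. Binding near them was read from the peak lists of a BACH2 and a JunD chromatin immunoprecipitation (ChIP-seq) in mouse induced regulatory T cells (iTreg cells). Each gene was given a window of 90, 100 or 130 kb of the mm9 genome, and every interval of either list that overlapped a window by at least 1 bp was taken. These 7 windows, 740 kb in all, held 12 intervals of the 14370 in the lists, of which 11 were among the 9133 BACH2 peaks and 1 was among the 5237 JunD peaks. An interval was taken by its position alone, whatever its strength, but the genes and windows were themselves chosen with earlier results of these data known. The cells came from the spleens of wild type C57BL/6 mice, 8 to 12 weeks old. Sorted CD4+ T cells were grown for 4 days on plate-bound antibodies against CD3ε and CD28 with TGF-β, which turns activated T cells towards a regulatory state, and both ChIPs share this treatment. Each factor had 1 library, with no other condition to compare it with, so differences have no replicate check and no test was made. For JunD the labels name a pair of antibodies without saying which was used. The lists carry positions and no expression, so the labelled cell type could not be checked against its markers.

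BACH2 and its relative BACH1 are transcriptional repressors. They pair with small MAF proteins and bind MAF recognition elements, which resemble the antioxidant response elements used by the activator NRF2 and contain an AP-1-like core. Heme binds the BACH proteins and weakens their hold on DNA, and Hmox1 is the best known gene controlled in this way. JunD is an AP-1 subunit that binds the AP-1 core as a dimer with FOS or other JUN and ATF proteins.

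The sequences under the peaks are not shown, because no mm9 sequence was used. RefSeq promoter sequences (GRCm38.p6) were matched for 5 of the 7 genes, with 8 annotated starts between them. Hmox1 and Gclc were the genes not matched. The 250 bases before each start were searched on both strands for the AP-1 site TGACTCA and for the antioxidant response element core TGACNNNGC. They were also searched for TGCTGA, which is only a part of the MAF recognition element. Whole MAF recognition elements were not searched for. Matches of the first motif can overlap matches of the other motifs. The 3 promoters with a match are shown 5′ to 3′ along the gene's own strand, with the matched bases in capitals, because they show which of these letters stand beside the starts of the genes:
Srxn1 (chr2:152105274-152105523, plus strand): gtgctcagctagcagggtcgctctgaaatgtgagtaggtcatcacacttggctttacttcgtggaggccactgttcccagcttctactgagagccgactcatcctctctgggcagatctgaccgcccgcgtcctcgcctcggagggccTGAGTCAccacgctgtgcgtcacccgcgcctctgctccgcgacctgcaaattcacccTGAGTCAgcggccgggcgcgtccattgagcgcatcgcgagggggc
Gclm (chr3:122245307-122245556, plus strand): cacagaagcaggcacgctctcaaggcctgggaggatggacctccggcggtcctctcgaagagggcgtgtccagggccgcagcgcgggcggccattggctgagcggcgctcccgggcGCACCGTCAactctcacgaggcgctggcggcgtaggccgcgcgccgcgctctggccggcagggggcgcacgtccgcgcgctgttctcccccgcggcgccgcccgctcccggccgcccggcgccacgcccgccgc
Txnrd1, the second of 3 starts (chr10:82858956-82859205, plus strand): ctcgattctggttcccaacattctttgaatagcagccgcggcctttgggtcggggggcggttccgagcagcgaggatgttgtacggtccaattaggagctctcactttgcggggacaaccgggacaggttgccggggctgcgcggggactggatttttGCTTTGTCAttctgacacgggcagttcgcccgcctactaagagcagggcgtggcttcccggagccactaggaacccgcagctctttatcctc
Srxn1 held 2 AP-1 sites, both read as TGAGTCA on the strand shown, at 102 to 96 and 45 to 39 bases before the start. The site nearer the start is followed by gc, so it misses the searched antioxidant response element core by 1 base. It also misses TGCTGA on the opposite strand by 1 base. Exact matching therefore cannot tell whether this is an AP-1 site alone or part of a longer element with an AP-1-like core. Among all 32851 promoters of this length, 4.46% held at least 1 AP-1 site and 0.167% held at least 2. Gclm and the second start of Txnrd1 each held 1 antioxidant response element core on the opposite strand, a motif present in 10.2% of all promoters. The partial MAF motif TGCTGA was in none of the 8 promoters of the members and in 16.1% of all promoters. Its absence does not show that MAF recognition elements are absent, because only exact matches to this part were counted. The other 5 promoters, which belong to Nqo1, Fth1 and the other starts of Txnrd1, held no match to any of the searched motifs. The coordinates of these promoters are in another build than the peaks, so a peak was not placed on a promoter.

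BACH2 had at least 1 peak in all 7 windows. Hmox1, Gclm, Txnrd1 and Fth1 had 2 each, and Nqo1, Gclc and Srxn1 had 1 each. This made 14.9 BACH2 peaks per Mb of window against 3.47 per Mb over the chromosomes, or 4.28 times the density of the list. When the chromosomes were divided into tiles of the same length, 16.8% of tiles of 90 kb, 17.9% of tiles of 100 kb and 21.3% of tiles of 130 kb held a BACH2 peak. At least 2 peaks were in 7.07%, 7.89% and 10.4% of tiles of 90, 100 and 130 kb. The tiles cover genes and gene-poor stretches alike, so they describe positions in general.

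**Figure D1:**
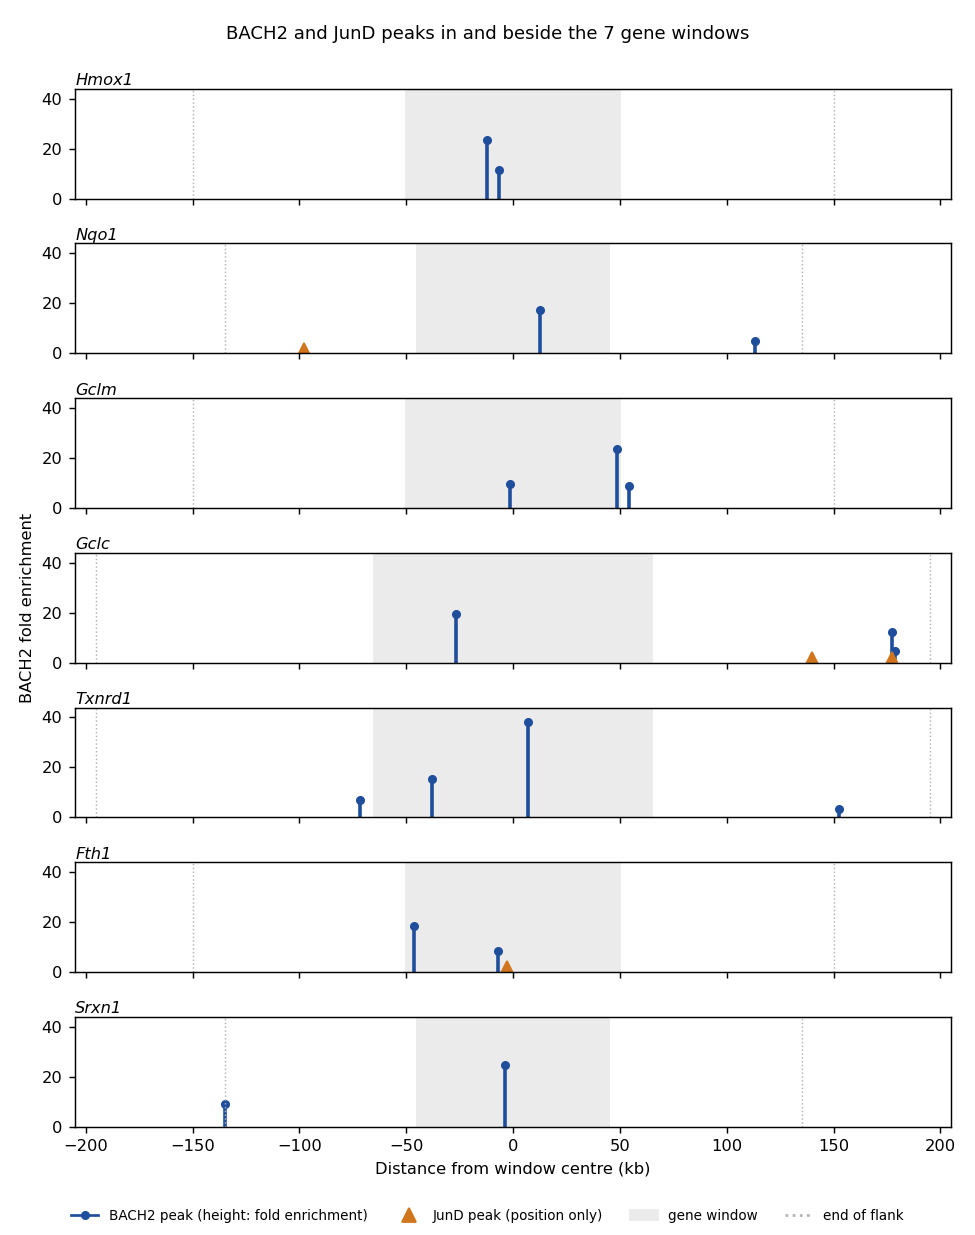
BACH2 peaks (blue, height in the authors' fold enrichment) and JunD peaks (orange triangles, position only) by distance in kb from the centre of each gene window. Grey marks the window and dotted lines the ends of flanks of equal length; every window holds a BACH2 peak, and the Fth1 window alone holds a JunD peak.

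In the heme and iron group, the Hmox1 window (chr8:77570000-77670000) held a strong and a weaker BACH2 peak. Hmox1 encodes heme oxygenase 1, which breaks heme down to biliverdin, iron and carbon monoxide. The stronger peak (chr8:77607694-77608037) was enriched 23.3-fold over background as the authors' caller gave it, with a −log10 q of 117, which put it at rank 162 of 9133 by −log10 q. The weaker peak (chr8:77613436-77613951) was enriched 11.3-fold, with a −log10 q of 31.9, at rank 1640. Their summits lay 5.78 kb apart. Around them the chromosome was empty in both lists over a long distance. The next BACH2 peak lay 2363 kb before the window and 2063 kb after it, and the next JunD peak lay 2553 kb before and 2063 kb after.

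Fth1 encodes the heavy chain of ferritin, which stores iron in an oxidised form. Its window (chr19:10010000-10110000) was the only one with peaks of both factors. A BACH2 peak near the left end (chr19:10013254-10013856) was enriched 18.3-fold, with a −log10 q of 90.9, at rank 318. The BACH2 peak near the middle (chr19:10052932-10053301) was enriched 8.49-fold, with a −log10 q of 19.2, at rank 2832, and was the weakest of the 11. The JunD peak (chr19:10057011-10057587) was 577 bp wide and had a score of 61.3. It ranked 3987 of 5237 in its list, whose median score was 81.6, and so was one of the weaker JunD peaks. A gap of 3.71 kb separated it from the weaker BACH2 peak, so the factors met in no interval of the window.

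Among the detoxification genes, Nqo1 encodes a quinone reductase that is a standard target of NRF2. Its window (chr8:109870000-109960000) held a single BACH2 peak (chr8:109927329-109927739) of 17.2-fold enrichment, with a −log10 q of 74.2. At rank 472 it was the lowest ranked of the strongest peaks of the 7 windows. The nearest JunD peak lay outside the window, 52.5 kb before its left end, with a score of 55.3, close to the lowest score of 50 in that list.

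The genes of glutathione synthesis, Gclc and Gclm, encode the catalytic and the modifier subunit of glutamate-cysteine ligase, which carries out the rate-limiting step. The Gclc window (chr9:77560000-77690000) held 1 BACH2 peak (chr9:77598220-77598711), with 19.7-fold enrichment and a −log10 q of 92.0, at rank 306. The Gclm window (chr3:121900000-122000000) held a peak near its centre (chr3:121948490-121948719) with 9.77-fold enrichment, a −log10 q of 22.9 and rank 2374. A second peak (chr3:121998493-121998895) had 23.6-fold enrichment, a −log10 q of 121 and rank 154. Both subunit genes had a window with a BACH2 peak among the strongest 5% of the list, and neither window had a JunD peak. The stronger Gclm peak lay at the end of its window, 50.04 kb from the weaker.

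In the thioredoxin group, the Txnrd1 window (chr10:82250000-82380000) held the strongest of the 11 BACH2 peaks. Txnrd1 encodes cytosolic thioredoxin reductase, which keeps thioredoxin reduced with electrons from NADPH. The peak (chr10:82321446-82322172) was 727 bp wide and had 38.2-fold enrichment and a −log10 q of 187. It ranked 25 by −log10 q and 8 by fold among the 9133 BACH2 peaks, and only 26 of the 20208 tiles of 130 kb (0.129%) held a peak as strong. The other Txnrd1 peak (chr10:82276835-82277290) had 15.5-fold enrichment and a −log10 q of 42.3, at rank 1163. Srxn1 encodes sulfiredoxin, which restores overoxidised peroxiredoxins. Its window (chr2:151890000-151980000) held 1 BACH2 peak (chr2:151930953-151931452) with 24.8-fold enrichment and a −log10 q of 84.4. That peak ranked 370 by −log10 q and 78 by fold.

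The 11 BACH2 peaks were stronger than most of their list. All 11 exceeded the list medians of 5.75-fold enrichment and 11.8 in −log10 q. Their own fold enrichments ran from 8.49 to 38.2 with a median of 18.3, and their −log10 q from 19.2 to 187 with a median of 84.4. By −log10 q, 9 of the 11 were in the strongest quintile, which holds 20% of the list, and the other 2, at Gclm and Fth1, were in the second quintile. By the same ranking, the strongest 5% of the list held 6 of the 11, 1 in each window but that of Nqo1. Such a peak was in 1.46%, 1.61% and 2.08% of tiles of 90, 100 and 130 kb. At Gclm and Fth1 these peaks lay within 5 kb of the end of the window. The Nqo1 exception depends on the ranking. Its peak was at rank 472 by −log10 q, just past the 457 peaks of the strongest 5%, but at rank 360 by fold, which is among them. In each of the 4 windows that had 2 peaks, the stronger had at least 2.06 times the fold enrichment of the weaker. A peak as strong as the best of its window was found in 0.605% of tiles of the same length for Hmox1, 0.579% for Gclm, 1.15% for Fth1, 1.18% for Srxn1, 1.45% for Gclc and 1.504% for Nqo1. The peaks were also wide for their list, with a median of 456 bp against 267 bp, and 10 of 11 exceeded that list median. Width and −log10 q are not independent readings, and the strongest quintile of the list had a median width of 427.5 bp.

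**Figure D2:**
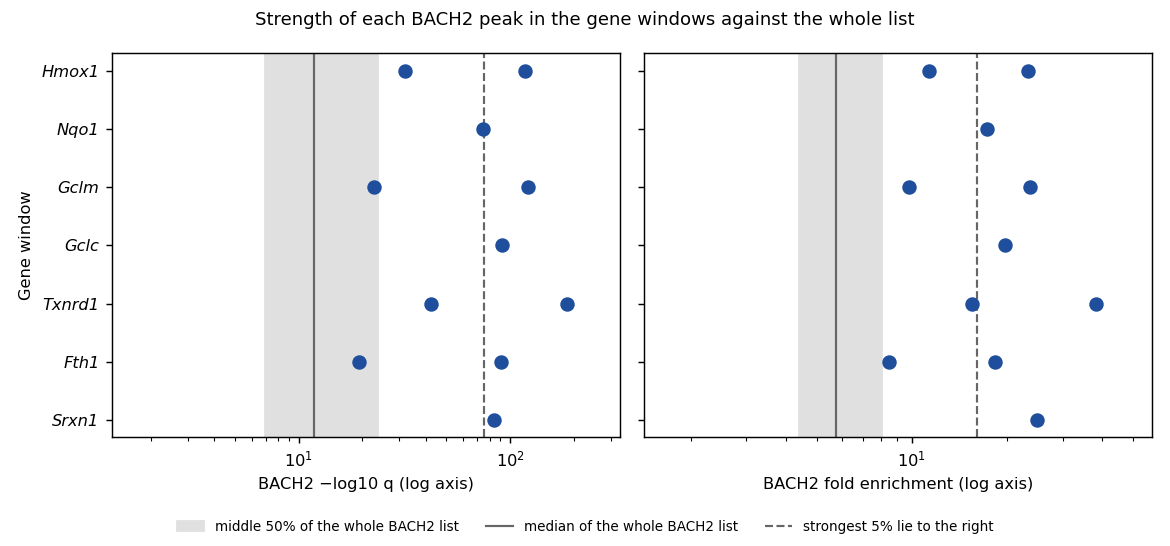
The BACH2 peaks of each gene window by −log10 q (left) and fold enrichment (right), 1 point per peak, both on log axes. The grey band is the middle 50% of all BACH2 peaks, the solid line their median and the dashed line the start of the strongest 5%; all 11 points lie to the right of both medians, with Txnrd1 at 38.2-fold the farthest.

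JunD was placed at none of these BACH2 peaks. A JunD peak overlapped 0 of the 11, while it overlapped 29.3% of all BACH2 peaks. Peaks of 1 window share their surroundings, so the 11 stand for 7 places. Counted over places, 0 of 7 has an exact Clopper-Pearson 95% interval of 0 to 41.0%, which covers counting error only. It includes 29.3%, but that is a share of peaks and not of places, so the units differ. The shares for stronger peaks that follow are also shares of peaks, and 42.9% and 55.1% lie above 41.0%. No conclusion is drawn from the interval. Strong BACH2 peaks met JunD more often than the list as a whole, with 42.9% overlapped in the strongest quintile and 55.1% in the strongest 5%, which included 9 and 6 of the 11. In the second quintile, which held the other 2, it was 32.6%. The 1 JunD peak in the windows was not overlapped by BACH2, against 48.8% of the JunD list that was. The windows held 1.35 JunD peaks per Mb against 1.99 over the chromosomes, a ratio of 0.678 that rests on that single peak. A JunD peak was present in 11.2%, 12.1% and 14.7% of tiles of 90, 100 and 130 kb, so most tiles lacked one, as did 6 of the 7 windows. Among tiles with a BACH2 peak, 51.1%, 49.5% and 46.4% at these lengths had no JunD peak. Among tiles with a BACH2 peak of the strongest 5%, the shares without JunD were 25.6%, 25.4% and 22.1%, while 5 of the 6 windows with such a peak had none. JunD sites below the caller's threshold are not in its list, and the sequencing depth is not known.

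The distance to JunD varied widely among the genes. From the BACH2 summit to the nearest JunD centre it was 4.23 and 43.8 kb for the peaks at Fth1, 110 kb at Nqo1 and 167 kb at Gclc. It was 185 and 229 kb at Txnrd1 and 376 kb at Srxn1. At Gclm it was 1211 and 1261 kb and at Hmox1 2120 and 2126 kb. The median of the 11 was 229 kb, against 15.2 kb for all BACH2 peaks and 4.44 kb for the strongest quintile. Strongest-quintile peaks without a JunD overlap had a median of 51.9 kb. A JunD centre within 50 kb was found for 2 of the 11, both at Fth1, against 65.4% of the list and 71% of the strongest quintile. These 11 distances likewise come from 7 places.

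**Figure D3:**
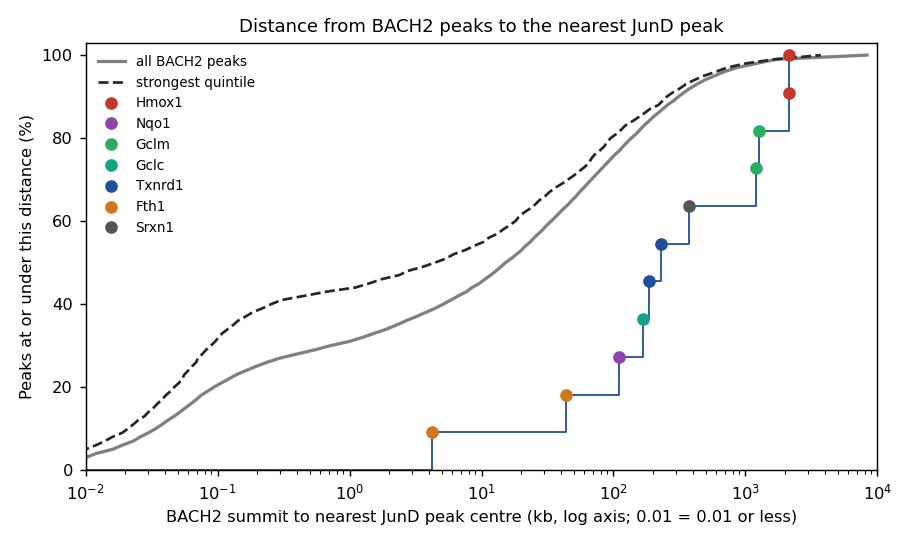
Cumulative share of BACH2 peaks (vertical axis, %) by distance from summit to nearest JunD centre (kb, log axis) for all BACH2 peaks (grey), the strongest quintile (dashed) and the 11 peaks of the gene windows (points). The points lie to the right of both curves over most of the range, with a median of 229 kb against 15.2 kb for the list.

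The 11 were also farther from other BACH2 peaks than the list was at the median. The median distance between a summit and the nearest other BACH2 summit was 39.5 kb for the 11 and 14.6 kb for the list, and 13.4 kb for the strongest quintile. Strongest-quintile peaks without a JunD overlap had a median of 17.8 kb. Among the 11, the distance ran from 5.74 kb for the stronger Gclm peak, whose neighbour lay outside the window, to 204 kb at Gclc. The 11 again come from 7 places, and the peaks at Hmox1 and at Fth1 are each other's nearest neighbours. In the flanks of equal length on both sides of the windows, which together are 2 times as long, there were 7 BACH2 and 3 JunD peaks. The median fold enrichment of these 7 flanking BACH2 peaks was 7.02, and 2 of them were in the strongest quintile. One of them, in the right flank of Gclc (chr9:77802329-77802672, 12.4-fold), was overlapped by JunD. None of the flanking peaks reached the fold enrichment of the strongest peak of the window beside it.

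The ends of the windows decided a few memberships. The strong Gclm peak lay 1.1 kb inside the right end, and the nearest peak beyond that end, 4.27 kb outside, had 8.69-fold enrichment and a −log10 q of 16.5. The strong Fth1 peak lay 3.25 kb inside the left end. With each window shortened by 10 kb at both ends, both were lost, the best rank became 2374 at Gclm and 2832 at Fth1, and 4 of the 7 windows in place of 6 held a peak of the strongest 5%. On the left of the Txnrd1 window a BACH2 peak of 7.02-fold enrichment was left out by 6.50 kb. Windows of this length can also hold neighbouring genes, and no mm9 annotation was used to tell them apart. In the GRCm38.p6 gene table, the nearest protein-coding genes on either side were Tom1 and Mcm5 for Hmox1, Nfat5 and Nob1 for Nqo1, Abca4 and Dnttip2 for Gclm, and Klhl31 and Elovl5 for Gclc. They were Nfyb and Eid3 for Txnrd1, Incenp and Best1 for Fth1, and Scrt2 and Tcf15 for Srxn1. Which gene a peak acts on was not measured.

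Further genes of heme handling, glutathione and thioredoxin and their regulators could be described by promoter letters only, since their mm9 positions were not used here. Of the 26 genes in this list, 22 had promoters, 34 in all. An AP-1 site was present in 1 of these 34 promoters, that of Prdx1, which encodes a peroxiredoxin, against 4.46% of all promoters. The antioxidant response element core was present in 7 promoters, those of Nfe2l2, which encodes NRF2 itself, the small MAF genes Maff, Mafg and Mafk, the biliverdin reductase gene Blvra, G6pdx and Prdx1, against 10.2% of all promoters. The partial MAF motif TGCTGA was in 5 promoters of 4 genes, which were Bach1, Blvra, Gpx4 and Mafk, against 16.1% of all promoters. A match describes letters in the window and not a site that is bound.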

How the data were processed

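Peak lists of 1 BACH2 and 1 JunD ChIP-seq library were analysed, and the input library was not analysed here. The submitters' processing notes name Bowtie 0.12.9 and the mouse build mm9 (NCBIM37). Which caller version and which control made the peaks is not given in the sources used here. Per BACH2 peak, the authors deposited a fold enrichment (a ratio), a −log10 p, a −log10 q and a summit, read from the narrowPeak layout, with an integer score that is 10 times the −log10 q. Per JunD peak, the authors deposited a score of unstated scale, so strengths were ranked within each list only. Starts were converted to 1-based positions. Peaks were assigned to windows and overlaps by at least 1 bp, and distances used BACH2 summits and JunD centres. Tiles ran without overlap from the start of each chromosome to its last peak. The counting was tested on simulated data. The windows, genes and lists were chosen with earlier results of these data known. The rule named all 7 genes with every interval in their windows. The planned search for motifs under peaks was not run. Depth is unknown, so no precision can be taken from it. Alternatives changed the window ends, the overlap required, the peak width, the score threshold and the ranking. The calculations were run in Python 3.11.15 with scipy 1.17.1, pandas 2.3.3 and numpy 2.4.6.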

Additional observations from a re-analysis of the deposited data

How the results depend on the processing

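The number of BACH2 peaks in the windows was 11, and it ranged from 9 (windows shortened by 10 kb at both ends) to 13 (windows lengthened by 50 kb). The shortening removed the strong peaks of Gclm (rank 154) and Fth1 (rank 318), which left best ranks of 2374 and 2832 there and 4 windows in place of 6 with a peak of the strongest 5%, a check chosen after the data were seen. All 11 were in the strongest 50% of their list, and the overlap with JunD was 0 under every alternative run. The smallest gap to a JunD peak was 3.71 kb. The alternatives that changed the overlap required, the peak width or the threshold could therefore only give 0. Lengthening the windows by 50 kb could have added an overlap, and it gave 0 of 13 BACH2 peaks. The single JunD peak was in the weaker 50% of its list, so the strongest 50% held 0 JunD peaks and gave no JunD share. The BACH2 density ratio of 4.28 was between 4.05 and 4.72 without each window in turn and 4.07 on autosomes alone. The JunD ratio of 0.678 was 0 without the Fth1 window and between 0.772 and 0.823 with each other window left out in turn. Because it rests on the 1 JunD peak at Fth1, these changes were fixed in advance and do not check it. Ranked by fold in place of −log10 q, the strongest peaks rose from rank 162 to 102 at Hmox1 and from 154 to 95 at Gclm. They rose from 25 to 8 at Txnrd1 and from 370 to 78 at Srxn1, while the other 3 moved by less than 1.5 times. Among those 3, the Nqo1 peak went from rank 472 to 360, which put it among the strongest 5% by fold. No paired analysis was possible because each factor had 1 library.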
